A study of Homo sapiens with 7 samples.

Results

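Forkhead transcription factors of endoderm and mesenchyme were examined in HCT116 cells through the peak lists of 6 chromatin marks. The genes were FOXA1, FOXA2, FOXA3, FOXC1, FOXC2, FOXD1, FOXF1, FOXF2, FOXL1 and FOXQ1, that is 10 of the 20162 protein-coding genes of the hg19 annotation. They were chosen by name as factors of these tissues, and every deposited interval over a gene body and 10 kb on each side of it was taken. This gave 92 distinct intervals, of which 5 lay in the windows of both FOXC2 and FOXL1.

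Forkhead factors share a winged-helix domain that binds DNA. FOXA proteins can open closed chromatin and act early in endoderm, from which liver, pancreas and gut epithelium arise. FOXF1, FOXF2 and FOXL1 belong to the mesenchyme beneath the gut epithelium, where they respond to Hedgehog ligands that the epithelium secretes. FOXC1 and FOXC2 act in mesoderm and vessels, FOXD1 in the stroma of the kidney, and FOXQ1 in epithelia, and FOXQ1 is often raised in colorectal tumors. The question here was which marks the endodermal and the mesenchymal genes carried in an epithelial tumor line.

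HCT116 is a human colorectal carcinoma line, and chromatin from it was sheared in a 96-well plate with the PIXUL sonicator before ChIP-seq. Each well held 200000 cells that were crosslinked and sonicated for 6 min in 100 µl, and each mark was immunoprecipitated from a single well. The labels list 7 libraries, 1 per mark: H3K4m1, H3K4m3, H3K9Ac, H3K27Ac, H3K36m3, H3K27m3 and CTCF. Lists of 6 marks were analysed, and H3K27Ac was not analysed here. There was no second condition and no replicate, so no test was possible, and each value below has no replicate check.

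H3K4m3 and H3K9Ac are found at active transcription start sites (TSS), H3K4m1 at enhancers and on the shoulders of start sites, H3K36m3 over transcribed gene bodies and H3K27m3 over genes held silent by Polycomb complexes. CTCF is a DNA-binding protein of insulators and chromatin loops. Each interval carried a fold enrichment, a linear ratio that the study's Methods give as relative to input, and a −log10 q-value. A peak was called past the limits when it met those that the study's Methods set for its peaks. These were a q-value below 1e-03 with a fold enrichment above 2 for H3K4m1 and H3K27m3, and a q-value below 1e-10 with a fold enrichment above 5 for the other marks. Of the 92 intervals, 57 were past the limits and 35 were deposited but under them. Fold enrichment was compared only within a mark, and a gene counted as marked at its TSS when a peak past the limits lay within 1 kb of the start of its canonical transcript. Read counts are not part of the lists, and the depth behind each value is unknown.

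Markers of cell type went with the label. H3K4m3 peaks past the limits stood at the TSS of 9 of 10 epithelial genes, among them EPCAM (fold enrichment 30.4) and CDH1 (25.1), with VIL1 as the gene without one. They stood at 2 of 10 mesenchymal genes, COL1A1 (9.21) and ZEB1 (20.9), at 0 of 6 liver genes and at 0 of 5 haematopoietic genes. Over all coding genes the share was 59.1%. The marker lists were chosen with earlier results of these data known, so they are not an independent check of the label.

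The TSS of 3 neighbors on chromosome 6 show the range of states among these genes. At the TSS FOXC1 carried H3K4m1, H3K4m3, H3K9Ac and CTCF, FOXQ1 carried H3K4m1 and a low H3K4m3 peak, and FOXF2 carried no mark past the limits. All 3 starts hold many CpG dinucleotides. Their promoters, 250 bases before to 50 after the start, are given from RefSeq (build GRCh38.p14), 5′ to 3′ and with each CpG in capitals. Each matched hg19 exactly and once, at chr6:1609900-1610199 for FOXC1, chr6:1389561-1389860 for FOXF2 and chr6:1312083-1312382 for FOXQ1, all on the plus strand.
FOXC1: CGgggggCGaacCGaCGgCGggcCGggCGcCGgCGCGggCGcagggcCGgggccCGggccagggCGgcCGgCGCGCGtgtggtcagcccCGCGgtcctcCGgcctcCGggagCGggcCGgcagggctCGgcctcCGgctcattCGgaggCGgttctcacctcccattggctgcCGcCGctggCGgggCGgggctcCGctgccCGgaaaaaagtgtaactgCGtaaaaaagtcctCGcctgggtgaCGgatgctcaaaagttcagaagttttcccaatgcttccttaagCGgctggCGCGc
FOXF2: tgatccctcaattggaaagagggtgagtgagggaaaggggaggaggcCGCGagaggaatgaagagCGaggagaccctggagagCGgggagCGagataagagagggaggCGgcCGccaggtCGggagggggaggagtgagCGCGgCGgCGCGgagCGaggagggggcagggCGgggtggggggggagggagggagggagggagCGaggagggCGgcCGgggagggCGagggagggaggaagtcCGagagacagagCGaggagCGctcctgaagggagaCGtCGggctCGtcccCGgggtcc
FOXQ1: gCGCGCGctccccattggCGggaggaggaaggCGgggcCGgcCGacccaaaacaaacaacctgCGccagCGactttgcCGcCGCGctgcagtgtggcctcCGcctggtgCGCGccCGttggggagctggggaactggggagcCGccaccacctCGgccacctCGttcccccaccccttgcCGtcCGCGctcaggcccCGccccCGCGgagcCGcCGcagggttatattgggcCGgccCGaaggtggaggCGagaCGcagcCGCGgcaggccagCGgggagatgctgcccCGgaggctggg
The 300 bases held 40 CpG in FOXC1, 26 in FOXF2 and 35 in FOXQ1, at a GC content of 72.7%, 71.0% and 74.7%. RefSeq promoters were matched for 6 of the genes, the others being FOXA1, FOXA3 and FOXD1. A form of the core of the forkhead binding motif, TGTTTAC, was searched as an exact match on both strands. It was in 0 of these 6 promoters and in 2.62% of 15318 promoters, 1 per coding gene of that table. Other forms of the core were not searched.

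Of the 10 genes, 6 carried H3K4m3 at the TSS, where 59.1% of all coding genes did (95% Wilson interval 58.5 to 59.8%, for counting error only). These were FOXA1, FOXA3, FOXC1, FOXD1, FOXF1 and FOXQ1. H3K4m1 was past the limits at the same 6 genes, against 49.1% of coding genes. H3K9Ac was found at FOXA1, FOXA3, FOXC1, FOXD1, FOXF1 and FOXL1, 6 genes again, against 58.5%. CTCF was found at FOXA1, FOXA3 and FOXC1, against 13.6%. No gene had H3K36m3 past the limits at its TSS (0.298% of coding genes; 6.49% with all deposited peaks, and still 0 of the 10) and none had H3K27m3 (1.22%). With all deposited peaks, FOXQ1 alone had H3K27m3 there, against 9.60% of coding genes. Shares at the TSS were therefore near those of all coding genes for H3K4m3 and H3K9Ac. FOXA2, FOXC2 and FOXF2 had none of the 6 marks at the TSS, as had 33.9% of coding genes. The count of CTCF depended on the window and the limits. It was 5 genes when the starts of all annotated transcripts were read (21.7% of coding genes), 8 when 2500 bp on each side were (17.7%) and 5 with all deposited peaks (29.5%). With the limits of the other marks, H3K4m1 was left at 1 TSS, against 1412 of the 20162 coding genes.

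**Figure D1:**
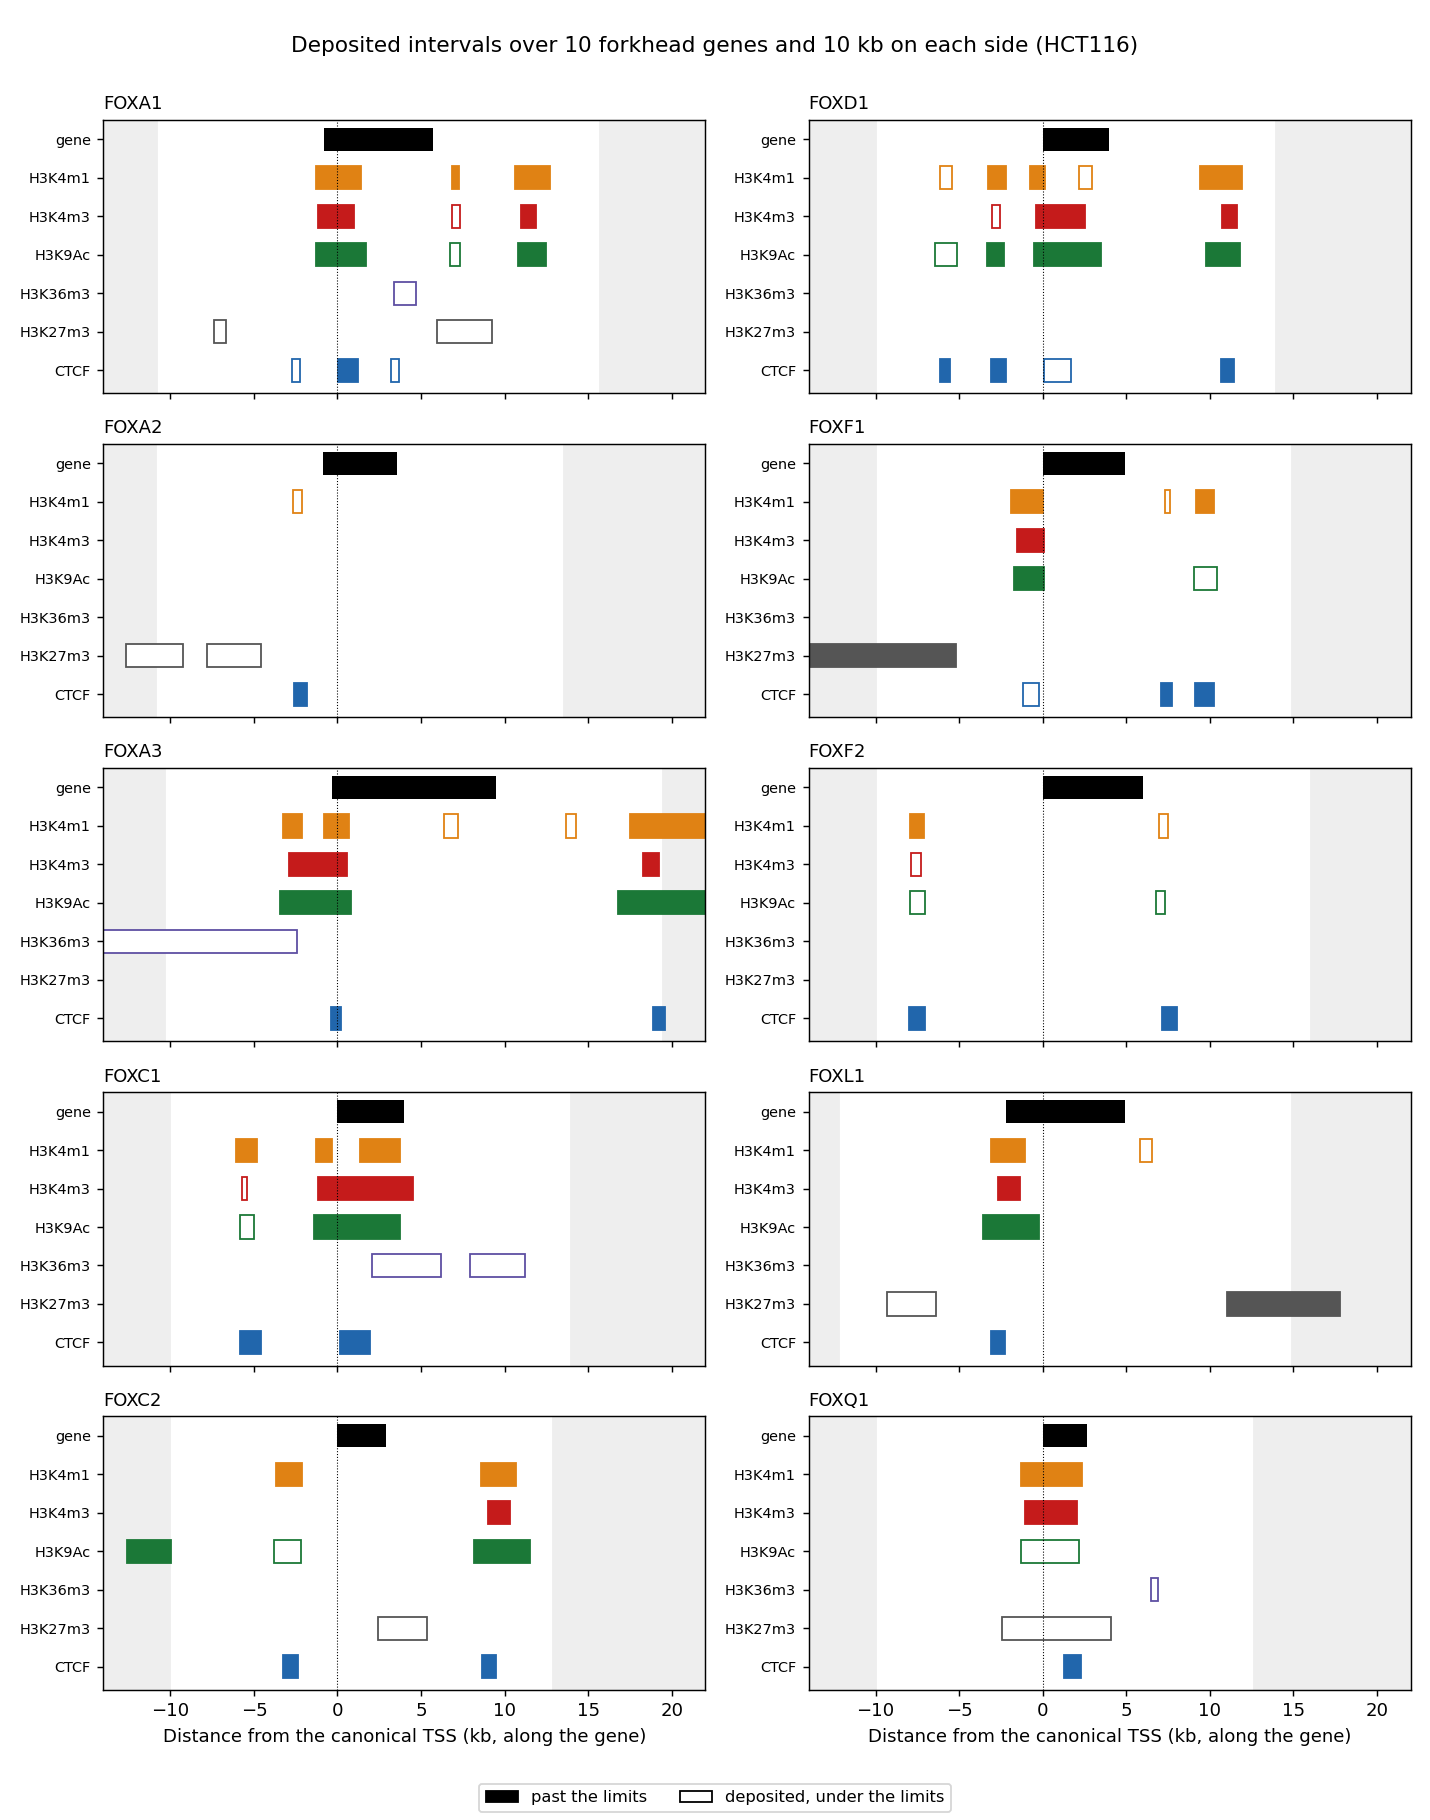
Every deposited interval over each of the 10 genes and 10 kb on each side, plotted by distance from the canonical TSS in kb along the direction of transcription, with 1 row per mark and the gene body in black. Filled boxes are past the limits, open boxes are deposited but under them, and grey areas lie outside the window. The starts of FOXA2, FOXC2 and FOXF2 are empty, and CTCF is filled in all 10 panels.

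Over the gene and its flanks, CTCF peaks past the limits were found for all 10 genes, against 62.4% of coding genes. H3K4m1 was found for 9 (all but FOXA2; 71.9% of coding genes), H3K4m3 for 8 (all but FOXA2 and FOXF2; 69.1%) and H3K9Ac for 7 (all but FOXA2, FOXF2 and FOXQ1; 68.3%). H3K36m3 was past the limits for 0 (0.789%) and H3K27m3 for FOXF1 and FOXL1 (3.94%). With all deposited peaks, H3K36m3 was in the windows of FOXA1, FOXA3, FOXC1 and FOXQ1, 4 genes against 65.9% of coding genes. It overlapped the gene itself at FOXA1 and FOXC1 and lay only in the flanks at FOXA3 and FOXQ1. H3K27m3 was then in the windows of 6 genes, against 30.0%. These shares grow with the length of a gene. The 10 genes measured 2661 to 9809 bp with a median of 4677 bp, against a median of 27220 bp for all coding genes.

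The endodermal genes FOXA1 and FOXA3 carried the same 4 marks at the TSS, H3K4m1, H3K4m3, H3K9Ac and CTCF, whereas FOXA2 carried none. FOXA1 lies on chromosome 14 from 38058757 to 38065264, on the minus strand, and has 2 exons. Its H3K4m3 peak (15.5) was lower than most, with 18.2% of the H3K4m3 peaks at coding TSS below it, and its H3K9Ac peak (8.11) had 8.34% below it. Its H3K4m1 peak (4.86) stood near the middle, with 56.2% below. Each of these 3 peaks ran from the upstream region over the 5′ UTR and the coding sequence into the intron. They also contained the start of TTC6, which is transcribed away from FOXA1 from a site 380 bp off, and a peak over both starts cannot be assigned to either gene. CTCF (13.8) lay just inside FOXA1, from 33 to 1201 bp past the TSS.

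A further group of marked intervals lay beyond the end of FOXA1. H3K4m1 (4.91), H3K4m3 (13.6) and H3K9Ac (10.7) overlapped there, with the H3K4m1 peak 10615 to 12712 bp from the TSS, and no annotated start lay inside them. Between this group and the gene, at a long non-coding RNA that starts 6485 bp from the TSS, a narrow H3K4m1 peak of 373 bp (4.32) was past the limits. H3K27m3 (2.94), H3K4m3 (3.35) and H3K9Ac (2.95) overlapped it but were under the limits.

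FOXA3 lies on chromosome 19 from 46367247 to 46377055, on the plus strand. Its H3K4m3 peak (19.6, with 35.3% of coding TSS peaks below it) spanned 3472 bp, wider than 94.8% of that list. Most of this width lay upstream, where SYMPK, a scaffold protein of pre-mRNA 3′ end processing, starts 1132 bp away in the opposite direction. The H3K9Ac peak (11.2) contained both starts as well, and a separate H3K4m1 peak (6.07) lay 2114 to 3279 bp upstream. The H3K4m1 peak at the start (5.30) and the CTCF peak (17.1) contained that of FOXA3 and not that of SYMPK. An H3K36m3 interval of 42092 bp (4.04, under the limits) covered most of SYMPK and ended 2448 bp before the TSS of FOXA3. The body of FOXA3 had no H3K36m3 interval. At the far end of the window, wide peaks of H3K4m1 (6.52) and H3K9Ac (13.8) reached over the start of IRF2BP1, a transcriptional corepressor, and narrower peaks of H3K4m3 (9.20) and CTCF (19.7) lay inside them.

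FOXA2 lies on chromosome 20 from 22561636 to 22566093, on the minus strand, and had the fewest intervals of the group. Of 4 deposited, 1 was past the limits: a CTCF peak (13.0) from 1837 to 2630 bp upstream of the TSS. An H3K4m1 interval (3.58) touched it but was under the limits. Upstream of that, 2 H3K27m3 intervals (3.53 and 3.25), also under the limits, began 4555 and 9260 bp from the TSS. No interval of any mark, deposited or past the limits, overlapped the gene itself. Neither its TSS nor that of its other annotated transcript had H3K4m3, and the CTCF peak began 954 bp upstream of the latter, within the 1 kb counted.

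Of the gut mesenchymal genes, FOXF1 had the highest values and FOXF2 none at its TSS. FOXF1 lies on chromosome 16 from 86544133 to 86549028, on the plus strand. Its H3K9Ac peak (23.1) exceeded 98.1% of those at coding TSS, its H3K4m1 peak (7.13) 92.5% and its H3K4m3 peak (28.7) 78.5%. All 3 were the highest TSS values among the 10 genes. The peaks lay almost wholly upstream of the gene. H3K4m3 reached from 1526 bp upstream to 69 bp past the TSS and covered 1.43% of the gene. In the same upstream stretch, 1428 bp from FOXF1, starts FENDRR, a long non-coding RNA of lateral mesoderm that is transcribed in the opposite direction. The peaks contained both starts, and the signal cannot be divided between them. CTCF overlapped the peaks (6.27) but was under the limits.

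H3K27m3 stood further upstream. A peak of 20596 bp (4.08), past the limits, lay within the body of FENDRR from 5180 to 25775 bp upstream of FOXF1. The peak contained another annotated start of FENDRR, and 4821 bp of it lay inside the window of FOXF1. It overlapped none of the other marks. Downstream of FOXF1, CTCF peaks lay 7058 to 7739 bp (16.3) and 9085 to 10230 bp (18.6) from the TSS, the second with H3K4m1 (6.46).

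FOXL1 lies on chromosome 16 from 86609974 to 86617084, on the plus strand, and has 2 annotated starts. Within 1 kb of the canonical start, at 86612155, only H3K9Ac was past the limits (8.86, with 13.0% of coding TSS peaks below it), a combination seen at 26 other coding genes. The other start lies 2181 bp upstream, and there H3K4m3 (11.6), H3K4m1 (4.74) and the same H3K9Ac peak all contained it. CTCF (8.70) ended 54 bp before it. The state of FOXL1 thus depends on which start is read, and by the upstream start it carried H3K4m1, H3K4m3, H3K9Ac and CTCF. An H3K27m3 peak past the limits (4.90, higher than 95.9% of that list) began 11001 bp past the canonical start and spanned 6780 bp. No H3K27m3 interval overlapped FOXL1 itself.

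FOXF2, on chromosome 6 from 1389811 to 1395838 and on the plus strand, had no interval of any mark over its start or its body. Peaks past the limits flanked it at a distance. CTCF (19.3) and H3K4m1 (6.37) coincided 7044 to 7982 bp upstream, and CTCF (15.7) lay 7137 to 8024 bp past the TSS, beyond the end of the gene. Intervals of H3K4m3 (3.84) and H3K9Ac (4.97) at the upstream site were under the limits.

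FOXC1 and FOXD1 carried H3K4m1, H3K4m3 and H3K9Ac at the TSS and FOXC2 carried no mark there. FOXC1 is a single-exon gene on chromosome 6, from 1610150 to 1614132 on the plus strand. Its H3K4m3 peak (28.5, with 77.7% of coding TSS peaks below it) measured 5698 bp and covered 100% of the gene, from the 5′ UTR to the 3′ UTR. It was the 66th widest of the 12749 H3K4m3 peaks past the limits. H3K9Ac (17.8, with 86.3% below) covered 93.8% of the gene. H3K4m1 lay on both shoulders, 337 to 1264 bp upstream (6.28) and, with a lower value, 1359 to 3719 bp inside, with a gap over the start. H3K36m3 (3.70, under the limits) began 2092 bp past the TSS and ran 6189 bp from it, past the gene's end.

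CTCF lay on FOXC1 and before it. The peak inside the gene (8.23) extended from 138 to 1956 bp past the TSS. The upstream one (25.4) was 4556 to 5824 bp away with an H3K4m1 peak (5.12), at FOXCUT, a long non-coding RNA transcribed toward FOXC1. This upstream CTCF peak ranked 302 of the 24536 CTCF peaks past the limits.

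FOXD1 lies on chromosome 5 from 72740654 to 72744602, on the minus strand. Its H3K4m3 peak (25.6, with 64.9% of coding TSS peaks below it) and its H3K9Ac peak (11.2, with 30.9% below) covered 64.5% and 87.7% of the gene. An annotated pseudogene and the antisense transcript FOXD1-AS1 overlap FOXD1, and the lists carry no strand. H3K4m1 (6.18) was narrow, 872 bp at the start, and CTCF there (4.84) was under the limits. At LINC01385, a long non-coding RNA 2721 bp away, H3K4m1 (6.26), H3K9Ac (8.47) and CTCF (21.0) were past the limits and H3K4m3 (5.47) was not. A further CTCF peak (10.6) lay 5559 to 6134 bp upstream of the TSS. Another group, of H3K4m1 (4.06), H3K4m3 (7.15), H3K9Ac (7.66) and CTCF (14.8), lay beyond the end of the gene, with no annotated start inside it.

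FOXC2 is a single-exon gene on chromosome 16, from 86600435 to 86603334 on the plus strand, and its TSS was bare. The only interval over its body was H3K27m3 (2.78), under the limits, which began 2431 bp past the TSS and overlapped the 3′ end. Its upstream flank held the highest CTCF value of the group. This peak (36.9, −log10 q-value 151) lay 2358 to 3257 bp before the TSS and ranked 15 of the 24536 CTCF peaks past the limits. The H3K4m1 peak around it (3.65) was weak, with 4.36% of that list below. H3K9Ac over the same site (4.72) was under the limits. The other peaks in the window belong to neighbors: those downstream to the upstream start of FOXL1, and an H3K9Ac peak (20.5) at MTHFSD and FLJ30679, of which 23 bp lay inside the window.

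FOXQ1, a single-exon gene on chromosome 6 from 1312333 to 1314993 on the plus strand, had a wide and low H3K4m3 peak. Its H3K4m3 peak (6.29, −log10 q-value 10.03) was just past the limits, and 0.0168% of the H3K4m3 peaks at coding TSS were lower. The peak measured 3117 bp, wider than 91.6% of the list, and covered 76.5% of the gene. H3K4m1 (5.74, with 78.3% of coding TSS peaks below it) covered 88.9%. H3K9Ac (4.69) was under the limits. An H3K27m3 interval of 6526 bp (3.09, −log10 q-value 1.78) overlapped all of these and was under the limits as well. CTCF (12.5) lay over the coding sequence and the 3′ UTR, 1272 to 2300 bp past the TSS. H3K4m1 and H3K4m3 with none of the other 4 marks was the combination of 145 other coding genes.

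**Figure D2:**
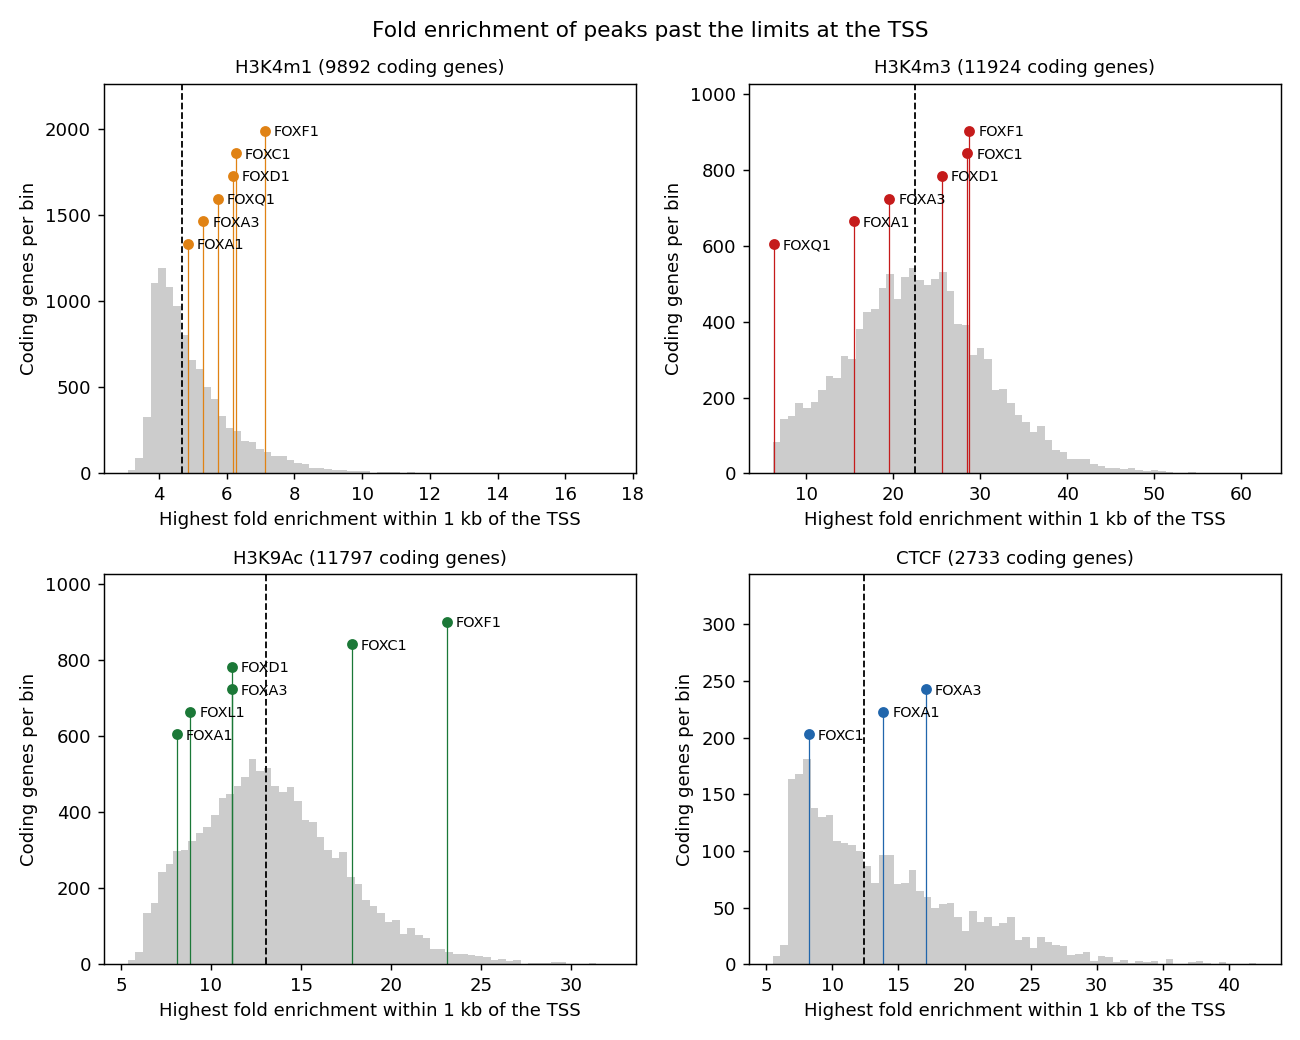
Fold enrichment at the TSS in 4 panels, 1 per mark: grey bars count the coding genes by the highest peak past the limits within 1 kb of the TSS, the dashed line is their median, and colored points are the forkhead genes. The height of a point has no meaning. FOXF1 and FOXC1 lie to the right in the H3K4m1, H3K4m3 and H3K9Ac panels, and FOXQ1 (6.29) lies at the left edge for H3K4m3.

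By H3K4m3 the order was FOXF1 (28.7), FOXC1 (28.5), FOXD1 (25.6), FOXA3 (19.6), FOXA1 (15.5) and FOXQ1 (6.29), beside a median of 22.5 over coding genes. The peaks of FOXF1, FOXD1, FOXA3 and FOXA1 also contained the starts of FENDRR, FOXD1-AS1, SYMPK and TTC6, in that order. Their values cannot be assigned to the forkhead genes alone. FOXA2, FOXC2, FOXF2 and FOXL1 had no H3K4m3 peak at the canonical TSS. For H3K4m1 all 6 were above the median of coding genes (4.69). For H3K9Ac, FOXF1 and FOXC1 were above the median (13.1), while FOXD1, FOXA3, FOXL1 and FOXA1 were below it. With 1 library per mark there is no spread by which neighbors in these orders could be told apart.

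The forkhead genes on chromosomes 6 and 16 form a pair of clusters, each with a FOXF and a FOXC gene. On chromosome 6, FOXQ1, FOXF2 and FOXC1 lie in 321800 bp (1302333 to 1624132), with 74817 bp between FOXQ1 and FOXF2 and 214311 bp between FOXF2 and FOXC1. On chromosome 16, FOXF1, FOXC2 and FOXL1 lie in 92952 bp (86534133 to 86627084), and FOXC2 and FOXL1 are 6639 bp apart. The FOXF and FOXC genes were marked in opposite ways. In the first cluster FOXC1 carried H3K4m3 and H3K9Ac and FOXF2 did not. In the second FOXF1 carried them and FOXC2 did not. The peaks of FOXF1 also contained the start of FENDRR, so this second contrast cannot be assigned to FOXF1 alone.

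By number of peaks, CTCF was the most frequent mark of the chromosome 6 region, with 11 past the limits. There were 8 of H3K4m1, 2 of H3K4m3 and 1 of H3K9Ac, and H3K27m3 and H3K36m3 had 0 there. By bases, H3K4m1 covered more of the region (4.44%) than CTCF did (3.24%). Over the genome the peaks past the limits covered 2.89% for H3K4m1 and 0.703% for CTCF. The H3K4m3 and H3K9Ac peaks belonged to FOXC1 and FOXQ1, so that the gaps between the genes held CTCF and H3K4m1 peaks. Outside the windows of the 3 genes, the highest CTCF peaks were 20.2 and 19.9. The chromosome 16 region held 5 peaks of H3K4m1, 3 of H3K4m3, 3 of H3K9Ac, 2 of H3K27m3 and 4 of CTCF. Its H3K27m3 peaks stood at the outer edges, over FENDRR and beyond FOXL1. The highest H3K4m3 peak (35.8) was that of MTHFSD and FLJ30679, which lie between FOXF1 and FOXC2. H3K36m3 intervals under the limits covered 23.8% of the region, and all lay within MTHFSD.

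**Figure D3:**
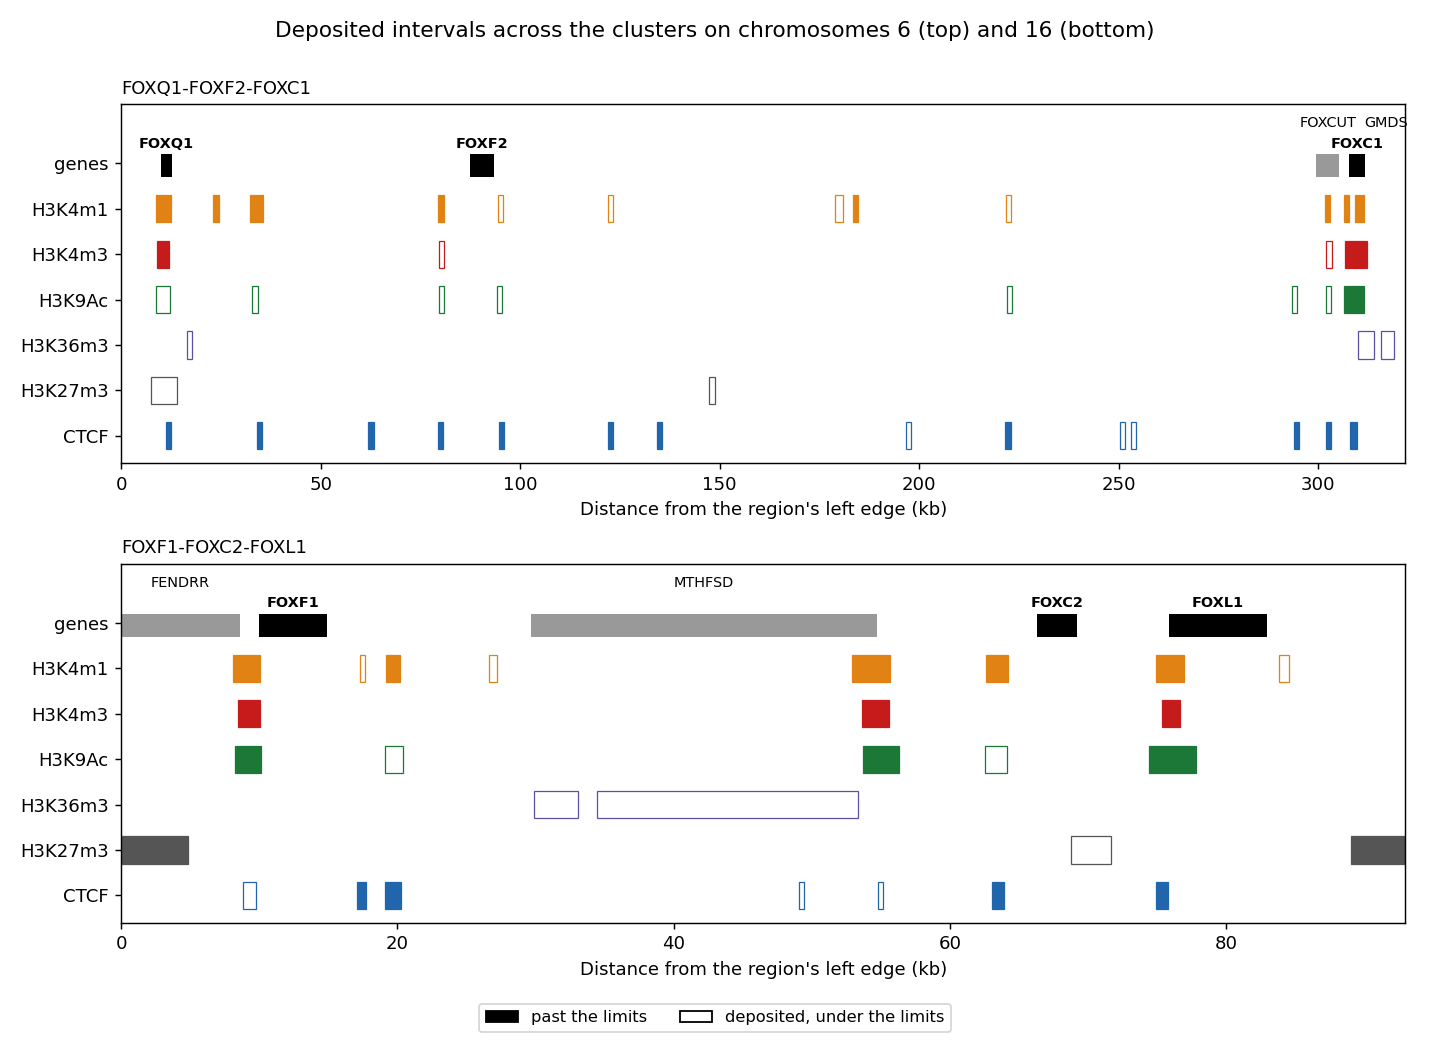
Deposited intervals across the clusters on chromosome 6 (top, FOXQ1, FOXF2 and FOXC1) and chromosome 16 (bottom, FOXF1, FOXC2 and FOXL1), by distance from the left edge of each region in kb. Filled boxes are past the limits and open boxes are under them, the narrowest are widened for visibility, and forkhead genes are in black and others in grey. CTCF boxes recur along the upper region, and the filled H3K27m3 boxes of the lower region lie at its edges.

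CTCF peaks near the forkhead genes often coincided with active marks. Of their 16 distinct CTCF peaks past the limits, 12 overlapped an H3K4m1 peak, where 30.8% of the 16850 CTCF peaks in the windows of all coding genes did. H3K4m3 was overlapped by 7 (15.8% of that set) and H3K9Ac by 7 (18.8%). None of these 3 marks was past the limits at the remaining 4 (65.6%), which were the peak of FOXA2, 1 each near FOXD1 and FOXF1, and the downstream peak of FOXF2. An H3K4m1 interval under the limits overlapped each of these 4. The percentages for all 24536 CTCF peaks were 11.9% over H3K4m3 and 70.3% over none of the 3. The 16 peaks share flanks and libraries and are not replicates. All coding genes are longer (median 27220 bp, against 4677 bp for the 10), and the windows compared were not matched for length.

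Each peak was scanned in hg19, on either strand, for the CTCF core sequence of 12 bases. It was present exactly in 1 of the 16 peaks, against 22.4% of all CTCF peaks past the limits, and with at most 1 mismatch in 5, against 65.9%. The exact copy lay downstream of FOXF2, outside the annotated genes, and 2 of the others, with 1 mismatch, lay at LINC01385 near FOXD1 and at the TSS of FOXA3. They are shown as examples, 1 exact copy and 2 with a mismatch, 5′ to 3′ on the strand of the match with the best match to the core in capitals.
FOXF2, chr6:1397402-1397413, minus strand: ctcctcgcgCCACCAGGGGGCgcgctgggc
FOXD1, chr5:72747287-72747298, minus strand: gtcgcaccgCCGCCAGGGGGCaactctgcc
FOXA3, chr19:46367467-46367478, plus strand: cctggcgatCCCGCAGGGGGCgccccagtc
The peaks were those with fold enrichments of 15.7, 21.0 and 17.1. The strongest one, upstream of FOXC2 (36.9), held no copy with fewer than 2 mismatches, nor did the upstream peak of FOXC1 (25.4). Of the 7 forkhead CTCF peaks over an H3K4m3 peak, 2 had a copy with at most 1 mismatch, and of the 9 elsewhere, 3 did. Over all CTCF peaks, the corresponding shares were 49.9% over H3K4m3 and 68.1% elsewhere. A match of letters describes the sequence and does not show where the protein was bound.

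The CpG ratios of marked and unmarked starts overlapped. In the 1001 bp around the TSS, the observed-to-expected CpG ratio was 0.672 to 0.981 with a median of 0.838, against a median of 0.723 over 20138 coding genes, and 8 of the 10 lay above that median. FOXC2 had the highest ratio (0.981, with 97.3% of coding genes below it) and FOXF2 one of 0.873, and neither had a mark at its TSS. FOXA2 had the lowest ratio (0.672) and FOXL1 the next (0.721). GC content ran from 56.3% in FOXL1 to 76.2% in FOXF2.

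**Figure D4:**
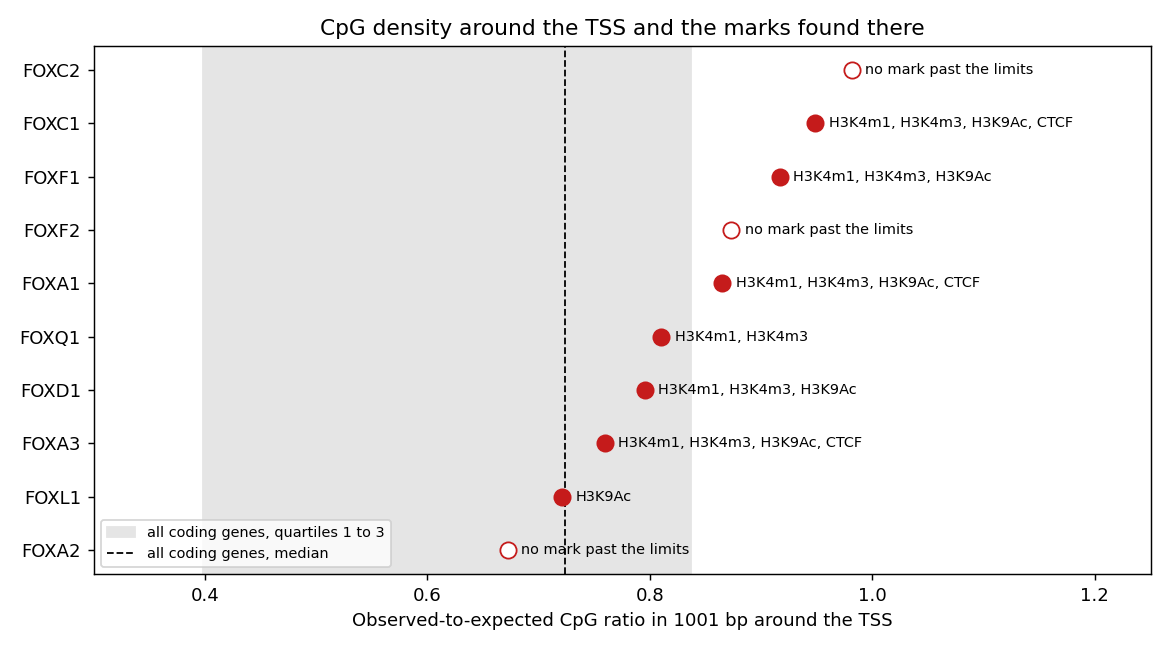
Observed-to-expected CpG ratio in 1001 bp around the TSS of each forkhead gene, ordered by ratio, with the marks past the limits at that TSS written beside each point. Open points have no mark. The dashed line and the grey band are the median and the quartiles of coding genes, and the open points lie at both ends of the range, FOXC2 at 0.981 and FOXA2 at 0.672.

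Among the 39 other forkhead genes, H3K4m3 past the limits was at the TSS of 15 (38.5%), H3K9Ac at 16 and H3K4m1 at 13, each beside 6 of the 10 described here. The difference was not tested, since the lists were chosen. The 15 included genes that are expressed in many tissues, such as FOXK1 (24.6), FOXO1 (28.2) and FOXO3 (25.2), whose H3K4m1, H3K4m3 and H3K9Ac combination equals that of FOXD1 and FOXF1. FOXJ2, FOXJ3, FOXK2, FOXN2, FOXN3, FOXN4 and FOXP1 had this combination too, and in all FOXD1 shared it with 6747 other coding genes. FOXO6 had that of FOXA1, FOXA3 and FOXC1, which FOXA1 shared with 1828 other coding genes. No mark was at the TSS of 20 of the 39, as at FOXA2, FOXC2 and FOXF2 and at 33.9% of all coding genes. The lists do not show how uniquely reads could be placed at each gene, so an empty start does not prove that a mark was absent. No forkhead gene of either group had H3K4m3 and H3K27m3 together past the limits. That pair was at 77 of all coding genes.

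The Hedgehog pathway regulates FOXF1, FOXF2 and FOXL1 in gut mesenchyme, and 10 of its 16 listed genes carried H3K4m3 at the TSS. None of the ligands did: SHH and DHH had no mark, and IHH had H3K4m1 alone (4.26). Of the receptors and transducers, PTCH1 (19.2), which binds the ligands, SMO (22.9), which relays the signal, and SUFU (21.9), which restrains it, carried H3K4m3. The effectors GLI1 (11.5) and GLI2 (17.3) carried it and GLI3 had no mark. Among the coreceptors, CDON (25.4) and BOC (17.6) had H3K4m3 with H3K9Ac. GAS1 had H3K4m3 (11.1) together with H3K27m3 (4.09) and without H3K9Ac, the only gene of the list with that pair. HHAT and DISP1, which act in the acylation and the release of the ligands, carried H3K4m3 with H3K9Ac. HHIP, an inhibitor of the ligands, had no mark. The number at the TSS, 10 of 16, lay near the share of all coding genes (59.1%).

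**Figure D5:**
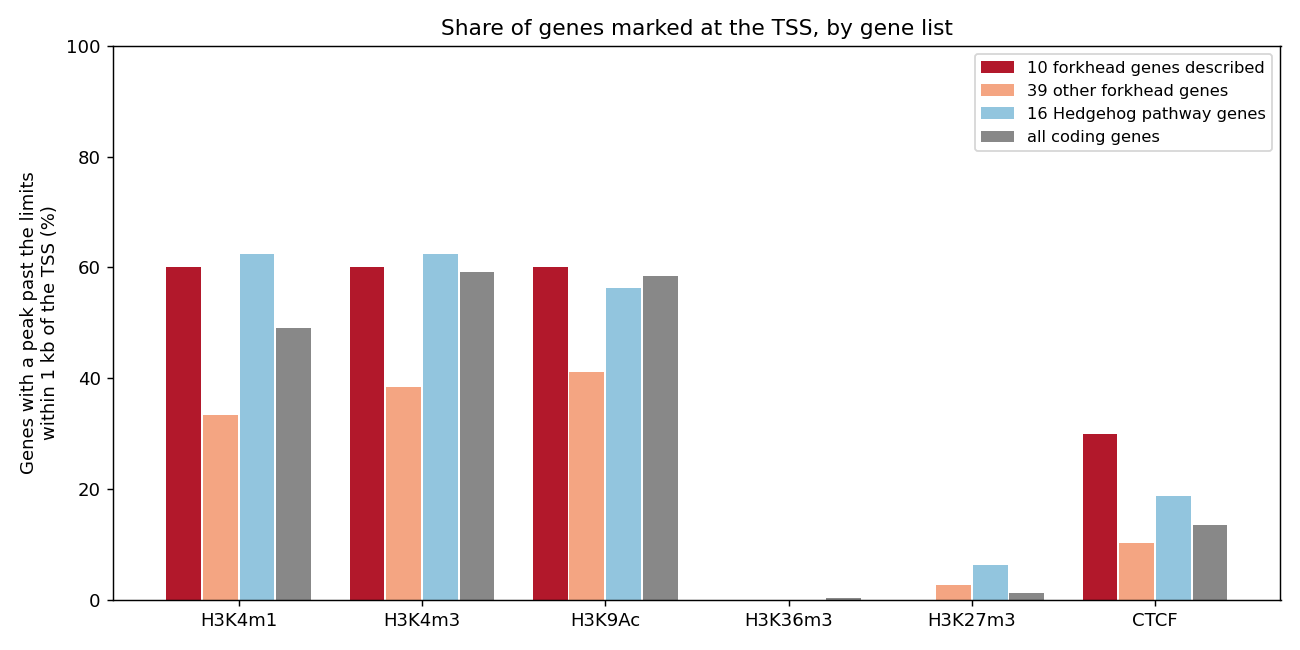
Percentage of genes with a peak past the limits within 1 kb of the TSS, by mark, for the 10 forkhead genes described, the 39 other forkhead genes, 16 Hedgehog pathway genes and all coding genes. For H3K4m3 the bars stand at 60%, 38.5%, 62.5% and 59.1%, and for H3K36m3 the bars of the 3 lists are at 0.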

How the data were processed

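Deposited peak lists of 6 marks from the PIXUL-ChIP-seq in HCT116 cells were used, each from 1 library. The authors used BWA 0.7.12 for alignment to hg19. MACS2 then called broad peaks with a cutoff of 0.1. The submitters' notes name MACS 1.4.2 instead, and whether reads were single or paired differs between sources. The authors deposited a fold enrichment, which is a linear ratio, and both −log10 q-values and −log10 p-values, and each of these describes a whole peak. Molecular identifiers allowed PCR duplicates to be removed, per the labels. Deposited lists include peaks under the limits of the Methods. The Methods name no CTCF limits, so the stricter ones were used.

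Genes were those of GENCODE 44 on hg19, on chromosomes 1 to 22, X and Y. The TSS was that of the canonical transcript, present for 19881 genes, and otherwise the 5′ end of the gene. Overlaps required 1 bp. Where several peaks lay at a TSS, the highest was taken. The 10 genes and the other lists were chosen with earlier results of these data known. The genes named were these 10, their neighbors, and genes of the lists with H3K4m3 and H3K27m3 or with the marks of a member. Other genes were named as background to the lists after their values were seen. Not every gene of the lists is reported here. The code for overlaps was run on simulated data (600 of 600 planted overlaps recovered) and checked against bedtools 2.31.1, and 0 marks differed. Python 3.11.15, numpy 2.4.6, scipy 1.17.1, matplotlib 3.10.9, pyfaidx 0.9.0.4 and samtools 1.23.1 were used.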

Additional observations from a re-analysis of the deposited data

How the results depend on the processing

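Of 68 alternative values, 52 stayed within 1.5 times the count reported and 16 did not. The depth of the libraries is unknown, and it limits which peaks pass the limits. No paired analysis was possible because there is no second condition and no replicate of a mark. With all deposited peaks, the number of forkhead genes with a peak in the gene and its flanks was 4 for H3K36m3 (65.9% of coding genes) and 6 for H3K27m3 (30.0%). At the TSS it was 1 for H3K27m3 (9.60% of coding genes) and 5 for CTCF (29.5%). When the limits were exchanged between the groups of marks, H3K4m1 was at 1 TSS and in 2 windows, H3K36m3 in 1 window, H3K27m3 in 0 and CTCF at 5 TSS. At intermediate limits (q-value under 0.01, fold over 2), H3K36m3 was in 3 windows and CTCF at 5 TSS. With 2500 bp on each side of the TSS, CTCF was at 8 genes (17.7% of coding genes), and with the starts of all annotated transcripts at 5 (21.7%). Over the gene body alone, H3K27m3 was at 0 genes, CTCF at 4, and 33 intervals remained. The stricter limits and the smaller windows hold fewer peaks by construction. At the exchanged limits, H3K4m1 was at the TSS of 1412 of the 20162 coding genes. Other shares of coding genes are not given for the exchanged limits, the intermediate limits or the gene body alone. Whether those counts follow the background was not tested.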
